A study of Xenopus tropicalis with 13 samples.

Results

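Genes of the cilium and of microtubule motors were examined in RNA of whole, single Xenopus tropicalis (western clawed frog) embryos, injected or not with an antisense morpholino oligonucleotide (MO) in a study of Taf15, an RNA-binding protein. They were chosen by name alone: a gene was a member if its symbol began with dnah, dnai, dnal, tekt, ift and a digit, rsph, spag, ccdc, kif and a digit, bbs or tctn, in any of the authors' 4 deposited lists of changed genes and changed gene segments (bins). This gave 36 genes among the 3270 distinct identifiers of those lists. The groups were 3 MO-injected and 3 uninjected embryos at stage 10, the start of gastrulation, and 3 MO-injected and 4 uninjected embryos at stage 15, when the neural plate folds. Embryos of all groups were cultured in the same medium and sequenced from polyadenylated RNA. The titles give the morpholino the code trns1MO, which the labels do not explain, no control-morpholino embryo is among the 13 analysed here, and 1 uninjected embryo labelled stage 15 in its title carries stage 10 in its description. The gene taf15 is itself in none of the 4 lists, which therefore hold no check of its level. At stage 15 the titles follow 2 naming styles, each used for MO-injected and uninjected embryos, and whether these mark batches was not tested.

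A motile cilium is built on a basal body and holds an axoneme, a ring of doublet microtubules around a central pair. Dynein arms (dnah, dnai and dnal genes) drive the bending, radial spokes (rsph) and the central pair (spag17 among others) regulate it, and tektins (tekt) run inside the doublets. Intraflagellar transport (ift) carries cargo up the cilium on kinesin motors and back on dynein, the BBSome (bbs) moves membrane proteins, and tectonics (tctn) belong to the gate at the base. In the frog embryo, motile cilia form on the multiciliated cells of the epidermis and on the gastrocoel roof plate, where they set the left-right axis. The prefixes kif and ccdc reach beyond cilia: most kinesins move cargo along axons or act in mitosis, and ccdc only names a coiled coil. By known role, 8 of the 36 members belong to the axoneme, 5 to intraflagellar transport or the BBSome, 4 to the basal body or to the formation and signalling of the cilium, 5 to cell division and 6 to cargo transport, while 8 had no such role assigned here.

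For genes, the tables used here give no value per embryo, but a log2 fold change, its standard error (SE), an adjusted p and a mean normalised count over embryos. Each list holds items past the authors' adjusted p of 0.1, and the stage 15 gene list only changes of 2-fold or more. A gene absent from a list was therefore not shown to be unchanged. Library depth is unknown, and p-values rest on the spread between separate embryos. The header of the gene lists names no direction, and positive values are read as higher in MO-injected embryos, because fold changes followed the raw read ratios of the same genes' bins (Spearman correlation 0.70 over 167 non-member genes at stage 15, a description across genes of the same embryos). At stage 10 the same correlation was 0.745 over only 11 genes, so the direction read there rests on less.

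At gastrulation no member was listed for expression, in a list that held at most about 2.19% of the genes tested (at least about 13317). The 2 members with a bin at stage 10 were ift57 and kif21a, described below. If RefSeq synonyms are admitted, 1 gene joins at stage 10, cep85 (synonym ccdc21), a centrosome gene, at -0.86 on the log2 scale (adjusted p = 1.2e-05, SE 0.153) in the authors' deposited table. No member was listed for expression at both stages, so no difference between stages could be tested.

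At stage 15, 21 members were listed for expression, of which 19 were lower and 2 were higher in MO-injected embryos. The whole list holds at most about 13.3% of the genes tested (at least about 15759). The 90.5% that were lower stand beside 54.9% of all 2094 listed genes. The median log2 fold change was -1.29 for the 21 members and -1.07 for all listed genes. Among the lower genes alone, however, the members' median was -1.43 and that of the 1150 lower genes was -1.59. Of the members 14.3% (3 genes) were lower by at least 2 on the log2 scale, and of all listed genes 17.8%. No test was made of the members as a list. In whole embryos, fewer cells of a type and less RNA per cell cannot be told apart.

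**Figure D1:**
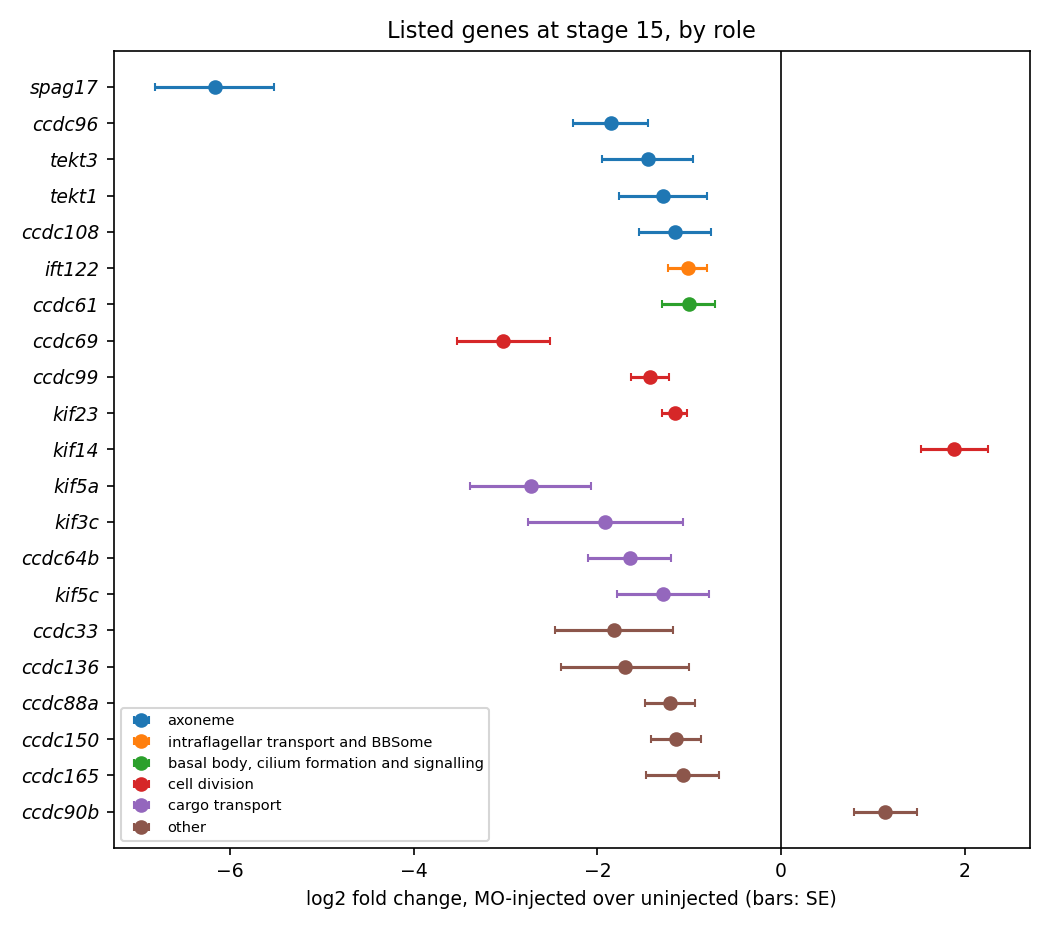
Log2 fold change (MO-injected over uninjected, horizontal axis) of the 21 listed members at stage 15 in the authors' deposited table, coloured by role; bars are the SE. All but kif14 and ccdc90b lie left of 0, and spag17 lies farthest left at -6.17.

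All 5 axonemal members listed for expression were lower. The central pair gene spag17, needed for ciliary beating in the mouse, fell by 6.17 on the log2 scale (adjusted p = 9.08e-19, SE 0.648), per the authors' deposited table. This is a 71.9-fold difference and the sixth lowest value of the 2094 genes, at a mean normalised count of 136. With so large a fold, that mean over all embryos comes almost wholly from the uninjected ones. The MO-injected level therefore rests on few reads, and the size of the fold is imprecise. The tektin genes tekt3 and tekt1 were lower by far less. In the authors' deposited table, tekt3 stood at -1.45 (adjusted p = 0.0198, SE 0.495) and tekt1 at -1.28 (adjusted p = 0.0386, SE 0.481). Their mean normalised counts were 148 for tekt3 and 89.5 for tekt1. The gene ccdc96, which encodes an axonemal protein known from the ciliate Tetrahymena, fell by 1.85 on the log2 scale (adjusted p = 0.000108, SE 0.409), per the authors' deposited table. The gene ccdc108, named cfap65 (cilia and flagella associated protein) in RefSeq, stood at -1.16 (adjusted p = 0.0202, SE 0.394) in the authors' deposited table. Apart from spag17, the listed axonemal members thus spanned log2 fold changes of -1.85 to -1.16, and no dynein arm, radial spoke, BBSome or tectonic gene was listed for expression.

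Transport and basal body genes were represented by 1 listed gene each. The retrograde transport subunit gene ift122 was at -1.02 (adjusted p = 4.63e-05, SE 0.215), just past the 2-fold limit, by the authors' deposited table. The gene ccdc61, whose product acts at basal bodies, was at -1.01 (adjusted p = 0.00487, SE 0.292) in the authors' deposited table, the member nearest to that limit. Both were well covered, with mean normalised counts of 413 for ift122 and 569 for ccdc61. A slightly smaller change in either would have left it off the list.

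Members that act in cell division went both ways, 3 lower and 1 higher. The kinesin gene kif14, which acts in cytokinesis, rose by 1.89 on the log2 scale (adjusted p = 7.85e-06, SE 0.368), per the authors' deposited table, a 3.70-fold difference. The kinesin gene kif23, the motor subunit of centralspindlin at the midzone of the dividing cell, was lower at -1.16 (adjusted p = 4.21e-15, SE 0.136) in the authors' deposited table. It had the highest mean normalised count of the members, 3548, and the smallest SE. The gene ccdc69, a regulator of the spindle midzone in human cells, fell by 3.02 on the log2 scale (adjusted p = 1.01e-07, SE 0.506), per the authors' deposited table. The gene ccdc99, named spdl1 in RefSeq and encoding Spindly, which recruits dynein to kinetochores, fell by 1.43 on the log2 scale (adjusted p = 4.04e-10, SE 0.206), per the authors' deposited table. Genes with roles at the midzone and in cytokinesis therefore held both the larger of the 2 rises among the members and decreases.

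All 4 listed cargo transport members were lower. The neuronal kinesin-1 heavy chain gene kif5a was at -2.73 (adjusted p = 0.000529, SE 0.662) and its relative kif5c at -1.29 (adjusted p = 0.0475, SE 0.502) in the authors' deposited table. The kinesin-2 gene kif3c was at -1.91 (adjusted p = 0.0901, SE 0.845) in the authors' deposited table, the weakest call of the 21. These motor genes rest on few reads, with mean normalised counts of 21.5 for kif5a, 15.1 for kif5c and 5.21 for kif3c, the lowest of the members. The gene ccdc64b, named bicdl2 in RefSeq and related to the Bicaudal D dynein adaptors, was at -1.65 (adjusted p = 0.00245, SE 0.449) in the authors' deposited table. Of 6 neural markers, the authors' deposited table also lists sox1 (-1.67, SE 0.447) and tubb2b (-1.07, SE 0.324) as lower, and the part of neural tissue in the kinesin values was not tested.

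Of the 6 remaining listed members 5 were lower. In the authors' deposited table ccdc33 stood at a log2 fold change of -1.82 (adjusted p = 0.0259, SE 0.641) and ccdc136 at -1.70 (adjusted p = 0.0640, SE 0.698). The mean normalised count of ccdc136 was only 11.7. The other lower ones were ccdc88a at -1.21 (adjusted p = 0.000120, SE 0.268), ccdc150 at -1.14 (adjusted p = 0.000373, SE 0.270) and ccdc165 at -1.07 (adjusted p = 0.0359, SE 0.398). Among them ccdc88a encodes girdin, an actin-binding protein, and had a mean normalised count of 730. The gene that rose was ccdc90b, which encodes a mitochondrial protein, at 1.14 (adjusted p = 0.00788, SE 0.345) in the authors' deposited table.

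The number of members listed was then set against the number that RefSeq names. By symbol or synonym, 243 named protein-coding genes of the RefSeq table (assembly UCB_Xtro_10.0) fall under the prefixes, and 20 of them were listed for expression at stage 15, or 8.23%. Of all 15627 named protein-coding genes, 8.87% were listed, a share close to that of the members. By prefix, 2 of 4 annotated tekt genes were listed for expression, 1 of 10 spag, 1 of 14 ift, 5 of 38 kif, 11 of 144 ccdc by a RefSeq match with 1 more (ccdc165) that RefSeq did not match, and none of 11 dnah, 8 bbs, 6 rsph, 3 dnal, 3 tctn and 2 dnai.

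**Figure D2:**
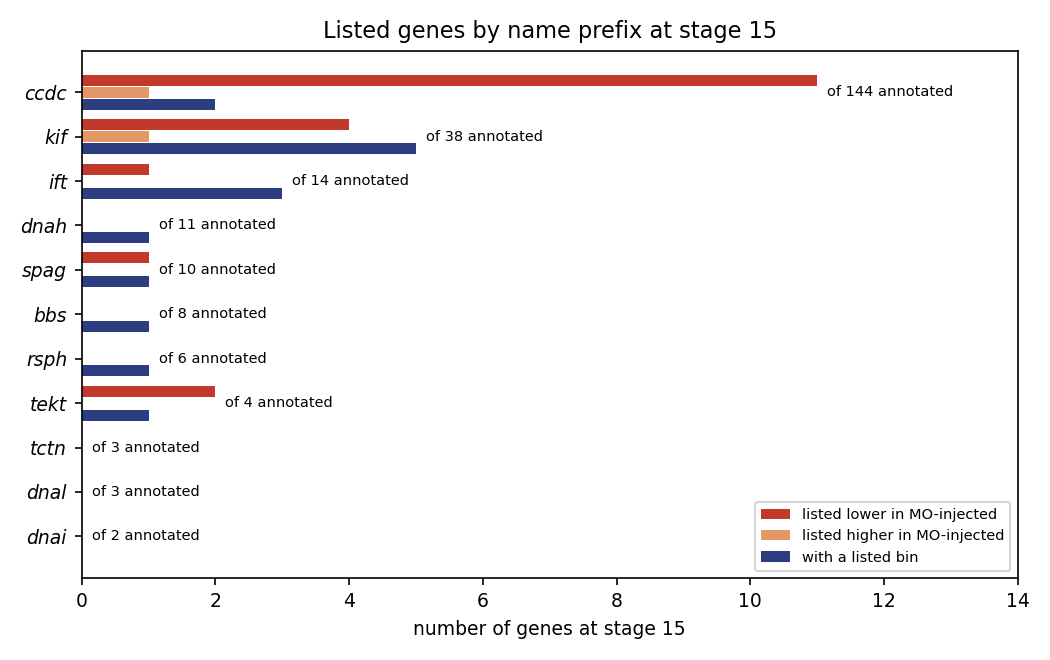
Number of genes at stage 15 (horizontal axis) that were listed lower in MO-injected embryos, listed higher, or had a listed bin, for each name prefix, with the number annotated in RefSeq beside the bars. The ccdc genes give 11 of the 19 lower genes, and tekt has 2 lower genes of 4 annotated.

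Other genes of cilia and motors were taken from lists that did not use the prefixes. Of their distinct RefSeq genes with no name under the prefixes, 9.52% of the regulators of multiciliated cells, 5.97% of the transport, transition zone and basal body genes, 9.09% of the motor and microtubule genes and none of the 67 axonemal genes were listed for expression at stage 15, beside 8.87% of all named genes. Of 21 regulators of multiciliated cells, 2 were listed for expression at stage 15. These were gmnc, which starts the multiciliated programme, higher at 2.04 (adjusted p = 0.0230, SE 0.707), and myb, which acts later in it, lower at -1.39 (adjusted p = 4.59e-05, SE 0.292) in the authors' deposited table. The regulators cep152 and tp73 had a bin at stage 15, and foxj1, mcidas, ccno and rfx2 were in none of the lists. Of 84 further symbols of axonemal genes, none was listed for expression under that symbol at either stage and wdr66 had a bin. The symbol cfap65 among them is the RefSeq name of the member ccdc108, which was listed as lower at stage 15 (-1.16, SE 0.394, in the authors' deposited table). Of 73 further transport, transition zone and basal body symbols, 3 were lower and 1 was higher at stage 15, while pcm1 and pkd2 had a bin. In the authors' deposited table the lower ones included the transition zone genes tmem107 (-1.10, SE 0.449, adjusted p = 0.0625) and b9d1 (-1.03, SE 0.276, adjusted p = 0.00208). The other lower one was the distal appendage gene cep89 (-1.03, SE 0.314, adjusted p = 0.00806). The higher one in the authors' deposited table was pkd1l1, a partner of the channel pkd2 at left-right cilia (1.16, SE 0.501, adjusted p = 0.0811). Of 36 further motor and microtubule symbols, 3 were lower at stage 15 and none was higher, and the authors' deposited table puts mapt at -1.60 (SE 0.466), dctn1 at -1.12 (SE 0.269) and stmn1 at -1.06 (SE 0.353). Bins at stage 15 were listed for dync1h1, dctn2 and mapt. At stage 10 the only listed gene of these 36 symbols was higher: prc1.2, by its name a form of the midzone protein gene prc1, at 2.16 (adjusted p = 6e-22, SE 0.206) in the authors' deposited table.

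Markers of tissues that carry cilia and of other tissues were also examined, first at stage 15. Of 9 multiciliated cell markers, gmnc was higher and tekt2 had a bin. The gene tekt2 is itself a member and gmnc is among the regulators above, so neither is a separate result. At stage 15 the authors' deposited table lists 1 of 8 ionocyte markers, atp6v1b1, as lower (-1.99, SE 0.530) and 1 of 13 goblet and basal epidermis markers, itln1, as lower (-1.22, SE 0.440). A bin was listed for slc4a1 of the ionocyte markers and for grhl1 of the goblet and basal epidermis markers. Of 9 gastrocoel roof plate markers, the authors' deposited table lists nodal (2.72, SE 0.633) and gdf3 (1.08, SE 0.219) as higher, though neither is confined to that tissue. Bins were listed for pkd2 and tekt2 of these markers, both already counted above. Of 6 muscle markers, the authors' deposited table puts myh4 at -7.96 (SE 0.379) and tnnc2 at -3.85 (SE 0.526). At stage 10 the authors' deposited table lists the ionocyte marker foxi1 as lower (-2.74, SE 0.561, adjusted p = 0.000358). The goblet and basal epidermis markers went both ways there, agr2 higher (2.07, SE 0.460, adjusted p = 0.00141) and tp63 lower (-1.01, SE 0.327, adjusted p = 0.0928). The neural marker elavl3 was lower (-0.997, SE 0.279, adjusted p = 0.0279). The share of cell types in the member values was not tested.

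The second kind of deposited table lists bins whose use differed, where use is a fitted score meant to reflect the part of a gene's reads in the bin. The scale of that score is not stated. A log2 change in use is therefore not read here as a log2 ratio of reads or of shares of reads. At stage 15 there were 22 bins in 15 members, in a list that holds at most about 0.751% of the bins tested (at least about 190168). Raw reads are given as counted, with no correction for depth. All of the 1429 listed bins were higher in use in MO-injected embryos, so direction carries no information. The smallest log2 change in use of the 22 member bins was 1.10. Whether the bin lists were also cut by direction or size is not known here. A bin absent from them was therefore not shown to be unchanged or not lowered. The raw reads of the groups did not overlap in 15 of the 22 member bins (68.2%), with every MO-injected embryo above every uninjected one, against 75.5% of all listed bins. The uninjected embryos had no read at all in 6 of the 22 (27.3%), against 16.0% of all listed bins. The member bins were thinly covered, with a median raw count per embryo of 3.21, against 6.86 for all listed bins, and a median width of 99.5 bases, against 180. By RefSeq match, 16 of the 243 annotated genes had a bin (6.58%), against 5.46% of all named genes. Beside the members, these 16 include cep95, a centrosome gene with the synonym ccdc45. Its first listed bin had 132, 200 and 208 reads in MO-injected embryos, against 13, 28, 21 and 25 in uninjected embryos, and the authors' deposited table gives it a log2 change in use of 1.18 (adjusted p = 2.15e-08). Its mean of 89.6 reads per embryo is above that of each of the 22 member bins, and the groups do not overlap. None of the 22 carries the retention score that the authors gave to 56 bins at stage 15, and the files do not say whether a bin is an exon or an intron.

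**Figure D3:**
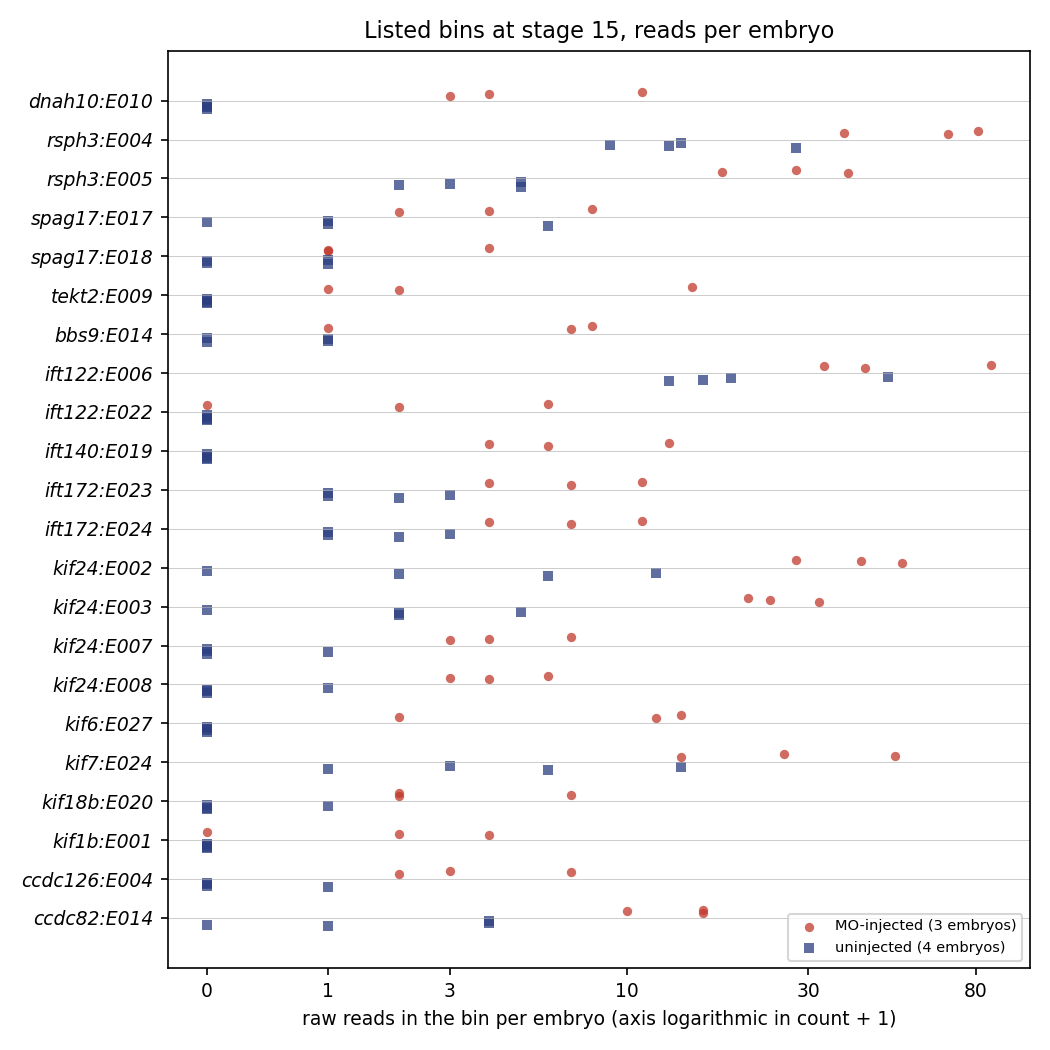
Raw reads per embryo (horizontal axis, logarithmic in count + 1) in each of the 22 listed member bins at stage 15, with MO-injected embryos as circles and uninjected embryos as squares. The groups do not overlap in 15 bins, and 6 bins have no uninjected read.

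The radial spoke gene rsph3 had the bins with the smallest adjusted p of the members. Its bin E004 (scaffold 5, bases 64976489 to 64976634, plus strand, genome build not given) had 68, 37 and 81 reads in the MO-injected embryos, against 28, 13, 9 and 14 in the uninjected ones. Its bin E005, 192 bases further on and 35 bases wide, had 38, 18 and 28 reads in the MO-injected embryos, against 5, 2, 3 and 5 in the uninjected ones. The groups were apart in both bins, most narrowly in E004, where the highest uninjected embryo had 28 and the lowest MO-injected embryo 37. Bins this close may share reads, so E004 and E005 are not taken as independent. The authors' deposited table gives log2 changes in use of 1.10 (adjusted p = 1.06e-23) for rsph3:E004 and 1.61 (adjusted p = 5.99e-14) for rsph3:E005. The gene itself was not listed for expression.

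In the other axonemal members the bins held few reads. The dynein arm gene dnah10, which encodes an inner arm heavy chain, had 3, 4 and 11 reads in bin E010 in MO-injected embryos and none in any of the 4 uninjected embryos (adjusted p = 3.45e-06 in the authors' deposited table). Against a floor of 3 counts over the uninjected group, the mean of the MO-injected embryos was 8.0-fold higher. This value leaves out the counting error and spread of the MO-injected reads, so it is no lower bound. The tektin gene tekt2 had 2, 1 and 15 reads in bin E009 in MO-injected embryos and none in uninjected embryos (adjusted p = 0.0139 in the authors' deposited table), so 1 embryo gave most of its 18 reads.

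In spag17 the level was lower and the use of 2 bins was higher. Bin E017 had 2, 4 and 8 reads in MO-injected embryos, against 6, 1, 0 and 1 in uninjected embryos. The touching bin E018 had 1, 1 and 4 reads in MO-injected embryos, against 1, 0, 0 and 1 in uninjected embryos. Touching bins may share reads, so these 2 are not taken as independent. The groups overlap in both bins, and the ratio of mean reads was 2.33 for E017 (95% counting interval 0.914 to 6.42) and 4.0 for E018 (0.715 to 40.5), intervals that include 1. The authors' deposited table gives a log2 change in use of 3.67 (adjusted p = 7.55e-12) for spag17:E017 and 4.10 (adjusted p = 6.88e-09) for spag17:E018, beside the log2 fold change of -6.17 of the gene's level. The MO-injected embryos thus had no fewer reads in these bins in total (14 and 6) than the uninjected embryos (8 and 2), while the gene as a whole was 71.9-fold lower. The bin reads are raw and the gene's level is normalised, so the values are not on the same scale. The log2 ratio of mean reads in E017, 1.05 with all embryos, was 0.49 without the third MO-injected embryo and 2.15 without the first uninjected one. In E018 it was 1.32 with all embryos and 0.58 without the third MO-injected embryo.

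Intraflagellar transport genes had 5 bins at stage 15. In ift122, the other member with both a level and a bin, bin E006 (scaffold 4, bases 124970749 to 124972964, minus strand) is 2216 bases wide. It had 42, 33 and 87 reads in MO-injected embryos, against 13, 16, 19 and 48 in uninjected embryos. The groups overlap because the fourth uninjected embryo, at 48, lies above 2 MO-injected ones. The log2 ratio of mean reads was 1.15, and the authors' deposited table gives a log2 change in use of 1.15 (adjusted p = 3.52e-08) for ift122:E006. These values are on unlike scales, so their match carries no meaning. Without the third MO-injected embryo the log2 ratio was 0.63, and without the fourth uninjected embryo 1.72. Its bin E022 had 2, 0 and 6 reads in MO-injected embryos and none in uninjected embryos (adjusted p = 0.0147 in the authors' deposited table). The level of ift122, a normalised value, was lower by 1.02 on the log2 scale while these bins held more raw reads.

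The retrograde subunit gene ift140 had 6, 4 and 13 reads in bin E019 in MO-injected embryos and none in uninjected embryos (adjusted p = 3.03e-08 in the authors' deposited table). Against the same floor the MO-injected mean was 10.2-fold higher. The anterograde subunit gene ift172 had 7, 4 and 11 reads in MO-injected embryos, against 2, 1, 3 and 1 in uninjected embryos, in bin E023 and the same numbers in bin E024. These 2 bins lie 313 bases apart and have identical counts in all 7 embryos, so they are not independent, and with both counted as 1 the bins without overlap are 14 (adjusted p = 0.0252 for each in the authors' deposited table). The BBSome gene bbs9 had 7, 1 and 8 reads in bin E014 in MO-injected embryos, against 0, 1, 1 and 0 in uninjected embryos (adjusted p = 0.000393 in the authors' deposited table). Here the second MO-injected embryo did not exceed the highest uninjected one.

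Among kinesins, kif24 had the most bins, 4. In mammalian cells its product holds back cilium formation at the mother centriole. Bin E002 (scaffold 1, bases 308638 to 309187, minus strand) had 52, 41 and 28 reads in MO-injected embryos, against 6, 2, 12 and 0 in uninjected embryos. Bin E003, 60 bases further and 11 bases wide, had 32, 24 and 21 reads in MO-injected embryos, against 2, 2, 5 and 0 in uninjected embryos. The groups were well apart in both, with ratios of mean reads of 8.07 for E002 (95% counting interval 5.0 to 13.7) and 11.4 for E003 (5.71 to 25.9). The intervals leave out the spread between embryos, and all listed bins were higher in use, so neither value is a test. These bins lie close together and may share reads, so they are not taken as independent. The authors' deposited table gives log2 changes in use of 1.34 (adjusted p = 0.00365) for kif24:E002 and 1.59 (adjusted p = 3.14e-07) for kif24:E003. The touching bins E007 and E008 had 3, 4 and 7 and 4, 3 and 6 reads in MO-injected embryos, against 1 read each over the 4 uninjected embryos. Bins E007 and E008 may share reads too. With each embryo left out in turn the log2 ratio of mean reads ran from 2.51 to 3.69 for E002 and from 2.90 to 3.84 for E003, both highest without the third uninjected embryo. The level of kif24 was not listed.

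The Hedgehog regulator gene kif7, whose product sits at the tip of the cilium, had 14, 50 and 26 reads in bin E024 in MO-injected embryos, against 6, 1, 14 and 3 in uninjected embryos (adjusted p = 0.00103 in the authors' deposited table). The lowest MO-injected embryo equalled the highest uninjected one, the third. The log2 ratio of mean reads was 2.23 with all embryos, 2.99 without that uninjected one and 1.66 without the second MO-injected embryo. For kif6, which is needed for ependymal cilia in the mouse, bin E027 had 12, 2 and 14 reads in MO-injected embryos and none in uninjected embryos (adjusted p = 4.32e-08 in the authors' deposited table). Against the same floor the MO-injected mean was 12.4-fold higher. The mitotic kinesin gene kif18b had 2, 7 and 2 reads in bin E020 in MO-injected embryos, against 1 read in all uninjected embryos, and the axonal kinesin gene kif1b had 4, 2 and 0 in bin E001, against none. Their adjusted p-values in the authors' deposited table, 0.0579 for kif18b and 0.0871 for kif1b, were the weakest of the 22. For kif18b the log2 ratio of mean reads was 2.47, and 1.74 without the second MO-injected embryo. The remaining bins were ccdc82:E014, with 16, 10 and 16 reads in MO-injected embryos, against 1, 0, 4 and 4 in uninjected embryos, and ccdc126:E004, with 2, 7 and 3 reads, against 1 read in all uninjected embryos.

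The 3 MO-injected embryos did not contribute alike. The third count column alone was highest in 14 of the 22 member bins, and it was alone highest in 47.7% of all listed bins. Summed over the 22 bins the MO-injected embryos had 326, 261 and 406 reads and the uninjected embryos 73, 41, 74 and 79. The lowest MO-injected sum thus lay above the highest uninjected sum, in bins that were selected for this. Of the 15 members with a bin at stage 15, 2 were listed for expression (13.3%), against 169 of 1046 genes with a bin (16.2%).

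At stage 10 the 2 member bins were those of a transport gene and an axonal kinesin gene, in a list that holds at most about 0.142% of the bins tested (at least about 160769). The bin ift57:E016, 5156 bases wide, had 5, 4 and 4 reads in MO-injected embryos and none in uninjected embryos (adjusted p = 0.0679 in the authors' deposited table). Against the floor of 3 counts over the uninjected group the MO-injected mean was 4.33-fold higher. The bin kif21a:E001, 2653 bases wide, had 45, 25 and 22 reads in MO-injected embryos, against 5, 8 and 3 in uninjected embryos. Its ratio of mean reads was 5.75 (95% counting interval 3.36 to 10.5), and the authors' deposited table gives a log2 change in use of 1.10 (adjusted p = 0.0124). The groups were apart in both bins, as in 97.4% of the 228 bins listed at this stage. Neither gene had a bin at stage 15, and no member had a bin at both stages.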

How the data were processed

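RNA of single embryos was sequenced. Tools named in the submitters' processing notes, without version or role, are DESeq2, DESeq, Cuffdiff, Cufflinks, Bowtie and TopHat. For genome build and annotation, the sources used here give none. Per the file headers, the authors deposited for genes a mean normalised count over embryos, which is a signal scaled by size factors, a log2 fold change with SE, its score (Wald statistic), and p-values in the layout of DESeq2. For bins, the authors deposited raw counts per embryo, their mean, fitted usage scores on an unstated scale, a log2 usage ratio of uninjected over MO-injected, whose sign was turned here, and p-values. All adjusted p-values are the authors' own; the lists are selected, so no model was refitted. Count columns of the stage 15 bin table are named for stage 10, were read as stage 15 from the fitted columns and the 4 uninjected columns, and are not tied to an embryo.

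Computed here were counts by direction, log2 ratios of mean raw reads (pseudocount 0.5), and ratios with exact Clopper-Pearson counting intervals (95%). These intervals hold counting error only, leave out the spread between embryos and are not corrected for library depth, which is unknown. Where no uninjected embryo had a read, the ratio was taken against a floor of 3 counts over the group. That ratio leaves out the error of the MO-injected reads and is no lower bound. The smallest number of tests follows from the Benjamini-Hochberg relation of p and adjusted p; the method was tested on simulated data. Python 3.11.15, scipy 1.17.1 and pandas 2.3.3 were used. Of the 36 members, 32 matched a RefSeq symbol, 3 a synonym and 1 nothing. Members, roles and lists were chosen with earlier results of these data known. Values were to be given for all members outside ccdc and kif, the 3 largest changes of ccdc and kif, and for bins the smallest adjusted p-values and all axonemal and transport members; the others given were chosen after their values were seen. The planned description of promoters was not made, since no sequence table was used here.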

Additional observations from a re-analysis of the deposited data

Results flagged for a closer look

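In 5 of the 22 member bins at stage 15, 1 of the 4 uninjected embryos stood apart from the other 3 by the gap between embryos relative to their range. In 4 of these bins the embryo had 1 read and the others none, in ccdc126:E004, kif18b:E020, kif24:E007 and kif24:E008. In spag17:E017 the first uninjected embryo had 6 reads and the others 0 or 1. Chance flags about 1 in 20 groups for continuous values, and counts of 0 and 1 are tied and are flagged more often. Without that embryo the log2 ratio of mean reads in spag17:E017 was 2.15, against 1.05 with it.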

How the results depend on the processing

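Of the 19 lower and 2 higher members at stage 15, 11 and 2 have an adjusted p under 0.01. Without ccdc genes 8 lower and 1 higher are left, and without kif genes 15 lower and 1 higher. Synonyms add 1 lower gene at stage 10, where there was none, and cep95 with 2 bins at stage 15. Of the 2 bins at stage 10, 1 has an adjusted p under 0.05, 0 have one under 0.01 and 1 has a mean of 10 or more reads; of the 22 bins at stage 15, 14 have an adjusted p under 0.01 and 6 a mean of 10 or more reads. Leaving out each embryo in turn, 15 to 17 bins did not overlap at stage 15 and 2 at stage 10; leaving out an embryo cannot create an overlap, so these counts could not fall and say nothing of stability. In alternatives chosen after seeing the data, 14 did not overlap with 1 bin for each run of touching bins, 14 with identical bins counted once and 13 with both. The log2 ratio of mean reads of each bin with an uninjected read kept its direction in all 152 recomputed values (pseudocount 1, medians, each embryo left out). All listed bins were higher in use in MO-injected embryos, so that direction was largely set by the selection and says little of stability. For single bins 1 embryo mattered: without the third MO-injected embryo the log2 ratio was 0.63 for ift122:E006, 0.49 for spag17:E017 and 0.58 for spag17:E018, and without the fourth uninjected one 1.72 for ift122:E006. No paired analysis was possible because the count columns are not tied to the embryos whose titles share letters or codes, and genes have no values per embryo. The difference between stages had no shared member to test. Bins of a few reads cannot bound a change closely, and unlisted genes have no value.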
